A study of Mus musculus with 2 samples.

Results

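The retinoic acid pathway was examined through 9 genes, *Stra6*, *Aldh1a1*, *Aldh1a2*, *Crabp1*, *Crabp2*, *Cyp26b1*, *Rara*, *Rarb* and *Rarg*, chosen by gene symbol from the 33207 genes counted in 2 single-cell RNA sequencing libraries. The mouse embryos carried *Egr2-Cre* (*Krox20-Cre*) on 1 allele and the *R26-Tomato* reporter, so that a cell and its progeny are Tomato-positive once *Egr2* has driven the Cre. Tomato-positive cells were sorted from dissected meninges, dorsal root ganglia and nerve roots of 1 pooled litter at E11.5 and 1 pooled litter at E12.5, and each litter gave 1 library with the 10x 3′ kit, version 2. The study was about the part of motor nerves in building the sympathetic chain, and these libraries traced boundary cap cells, the neural crest cells at the points where nerves enter and leave the spinal cord. With 1 library per stage there was no replicate and no test, and stage, litter and library cannot be told apart. A *Prss56-Cre* library was not analysed here.

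Retinol is brought into cells by the receptor STRA6, and is oxidised first to retinal and then, by the ALDH1A enzymes, to retinoic acid. CRABP proteins hold retinoic acid in the cytoplasm, CYP26 enzymes break it down, and the receptors RARA, RARB and RARG bind it in the nucleus as partners of RXR and act on genes such as those of the *Hox* clusters. In embryos the meninges and the mesenchyme beside the spinal cord are known sources of retinoic acid, and neural crest derivatives are known to respond to it.

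After filtering, 833 cells were kept at E11.5 with a median of 11601 unique molecular identifiers (UMIs, the counted molecules) and 3496 cells at E12.5 with a median of 6140. Levels are in CPM, a gene's UMIs summed over a class, divided by all UMIs of that class and multiplied by 1000000, with a 95% Poisson interval in brackets. Shares of cells with a UMI were taken after thinning each cell to 2000 UMIs, with the unthinned share beside them, and all intervals cover counting error only. The libraries shared 9 barcodes, 7 of them among kept cells. Clusters were formed without any retinoic acid gene and named from marker lists that hold none of the 9. At E11.5 there were 509 glia-like, 178 neurogenic progenitor-like, 50 neuron-like and 55 pericyte-like cells, and 41 cells of an unnamed cluster led by *Plcb1*. At E12.5 there were 1615 glia-like, 769 progenitor-like, 657 neuron-like, 41 pericyte-like, 36 myeloid-like and 182 mesenchymal-like cells, and 196 cells of an unnamed cluster led by the globin gene *Hbb-y*. No cluster at E11.5 was mesenchymal-like, although a finer clustering, at Leiden resolution 2, named 6 cells so. The samples were labelled as boundary cap cells, whose markers are *Prss56* and *Egr2*. At E11.5 *Prss56* was highest in the *4930434F21Rik*-led glia-like cluster, at 155 CPM with *Egr2* at 37.9. *Egr2* was highest in the *Egfl8*-led glia-like cluster, at 46.8 CPM with *Prss56* at 49.0. At E12.5 *Prss56* and *Egr2* were both highest in the *Zpld1*-led glia-like cluster, at 402 and 87.1 CPM. In the mesenchymal-like cells both were at 0.960 CPM, 1 UMI each. A cluster of 89 glia-like cells at E11.5 led by *Hnrnpa0* was shallow, with a median of 2840 UMIs.

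The members differed in the classes that held them. *Crabp2* was higher in glia-like cells than in the other named classes. *Stra6* was highest in the mesenchymal-like cells of E12.5. It was also higher in neuron-like cells, and in 1 progenitor-like cluster of each stage, than in glia-like cells. *Aldh1a2* had 522 of its 635 UMIs at E12.5 in the mesenchymal-like cells. *Rarg* was found in glia-like, mesenchymal-like and pericyte-like cells and hardly in the neurogenic classes. *Rara* and *Rarb* were found in glia-like, progenitor-like, neuron-like, mesenchymal-like and pericyte-like cells. *Aldh1a1* and *Cyp26b1* were near 0 throughout.

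**Figure D1:**
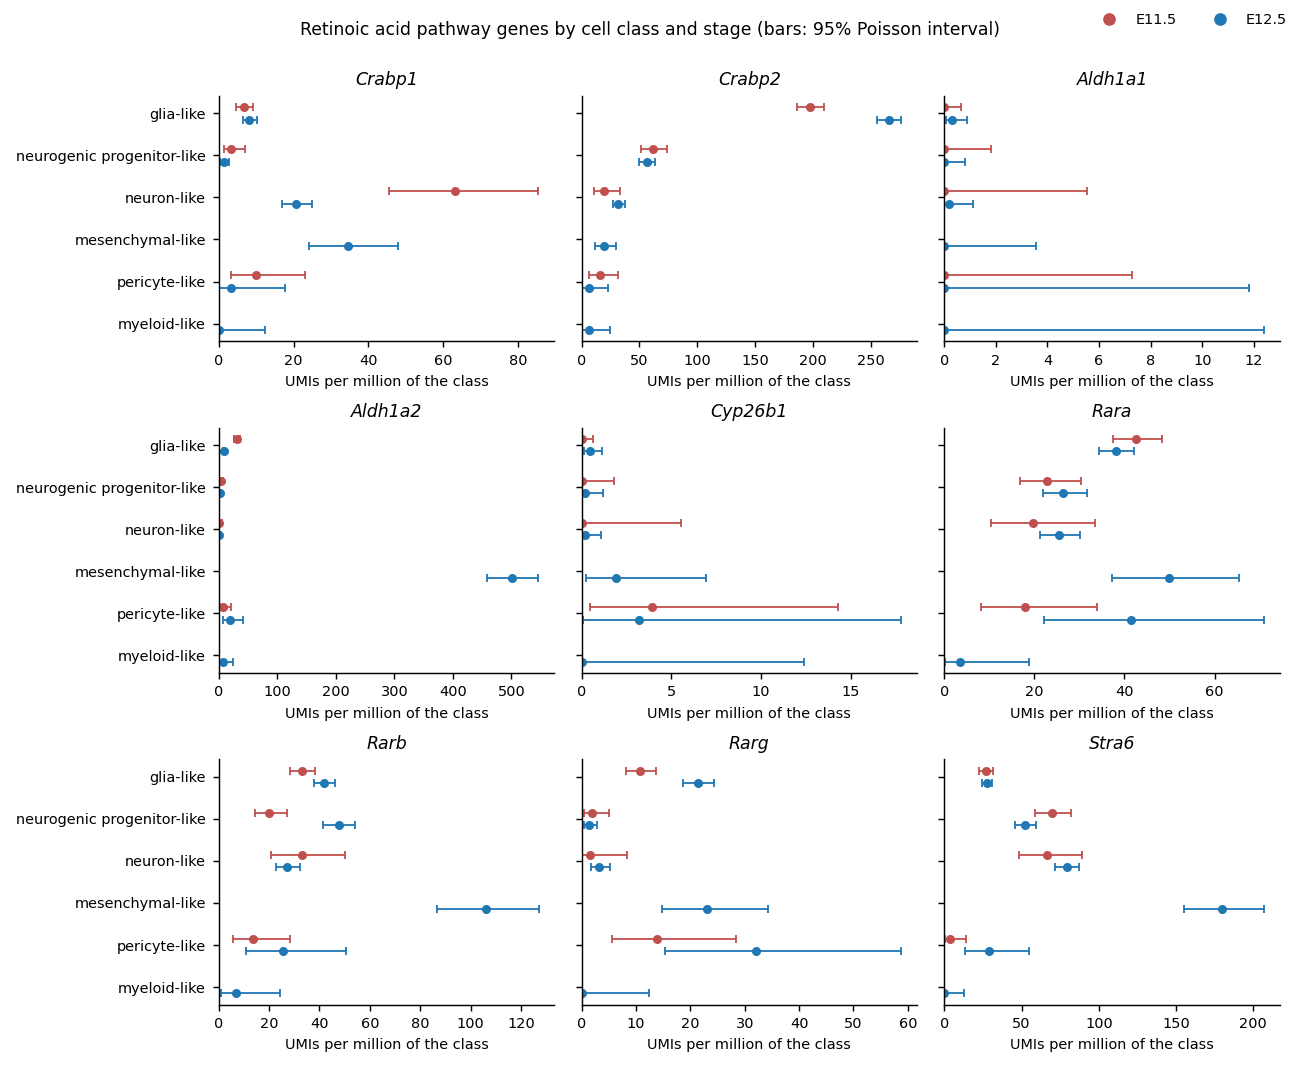
Level of each of the 9 genes (x axis, CPM; each panel has its own scale) by cell class (y axis) at E11.5 (red) and E12.5 (blue), as points with 95% Poisson intervals. *Aldh1a2* stood at 501 CPM in mesenchymal-like cells and under 32 CPM in every other named class, and *Crabp2* at 197 and 265 CPM in glia-like cells.

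*Stra6* (chr9:57970967-58063543, plus strand, GRCm39) encodes the membrane receptor that takes retinol up from its carrier in blood. At E11.5 it stood at 69.5 CPM (58.5–81.8) in progenitor-like cells, 66.2 (48.1–88.9) in neuron-like cells, 26.7 (22.7–31.3) in glia-like cells and 3.95 (0.479–14.3) in pericyte-like cells. The progenitor-like and neuron-like values did not differ beyond their intervals, and both lay above the glia-like value. At E12.5 the order was mesenchymal-like cells at 180 CPM (155–207), neuron-like at 79.2 (71.7–87.4), progenitor-like at 52.4 (46.0–59.4), pericyte-like at 28.8 (13.1–54.6) and glia-like at 27.6 (24.4–31.0). Only the pericyte-like interval overlapped those of its neighbours in this order, and 7 of its 9 UMIs came from 1 cell. No UMI of *Stra6* was found in the 36 myeloid-like cells, which allows up to 10.1 CPM at 3 counts.

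In shares of cells, *Stra6* was detected in 28.1% of thinned mesenchymal-like cells (53.8% unthinned) and in 13.4% of neuron-like (42.5%), 10.2% of progenitor-like (24.4%) and 5.21% of glia-like cells (14.6%) at E12.5. At E11.5 the thinned shares were 12.4%, 10.0% and 5.50% in progenitor-like, neuron-like and glia-like cells, with 45.5%, 48.0% and 23.4% unthinned. Within the neurogenic classes the gene was uneven. The progenitor-like cluster led by *Pcdh15* at E11.5 held 104 CPM (84.1–127), against 40.0 (25.6–59.6) and 43.0 (27.3–64.6) in the clusters led by *Insm1* and *Cck*. The leading genes of the *Pcdh15*-led cluster included *Kcnmb2*, *Neurod1*, *Isl1* and *Rbfox3*. It had 10 of 18 neuron-like markers beside 11 of 13 progenitor-like ones. At E12.5 the *St18*-led progenitor-like cluster held 88.6 CPM (75.9–103), the *Igfbpl1*-led cluster 31.7 (22.9–42.7) and the cluster led by the mitotic gene *Ube2c* 18.2 (11.6–27.4). Of the progenitor-like clusters, only the *Pcdh15*-led and *St18*-led ones thus lay above the glia-like cells of their stage beyond their intervals, and the *Ube2c*-led value was below the glia-like one with overlapping intervals. Progenitor-like cells with UMIs of at least 2 of 6 cell cycle genes held less *Stra6* than the others. The values were 15.8 CPM in 160 such cells against 66.4 in 609 others at E12.5, a ratio of 0.238 (0.142–0.376), and 51.4 against 81.4 CPM at E11.5, a ratio of 0.632 (0.430–0.914). In glia-like cells the same ratio was 1.02 (0.789–1.32) at E12.5 and 1.08 (0.634–1.99) at E11.5.

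*Stra6* overlaps 2 protein-coding genes on the other strand. It shares 16 bases at its 3′ end, chr9:58063528-58063543, with *Islr*, which stood at 337 CPM (303–374) in mesenchymal-like cells, 4.95 in neuron-like and 1.49 in glia-like cells at E12.5. Whether counting used strand is not given in the sources used here. *Stra6* stood at 179 CPM (152–211) in the 138 mesenchymal-like cells with an *Islr* UMI and at 180 (128–247) in the 44 without. A cell with no *Islr* UMI can still hold its RNA, so this split cannot separate the 2 genes. *Ccdc33*, the other of the 2, overlaps 55140 bases of *Stra6*, chr9:57970967-58026106. It had no UMI in mesenchymal-like cells and stood at 9.23 and 5.46 CPM in the progenitor-like cells of E11.5 and E12.5. Whether RNA of *Islr* or *Ccdc33* was counted as *Stra6* was not tested.

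Of the enzymes that make retinoic acid, *Aldh1a2* (chr9:71122630-71203527, plus strand), the main such enzyme of the early embryo, was the gene with the widest range between classes. In mesenchymal-like cells at E12.5 it stood at 501 CPM (459–546), with UMIs in 123 of 182 cells, and was detected in 45.6% of thinned cells (67.6% unthinned). No cell of that class held more than 18 of its UMIs. Pericyte-like cells followed at 19.2 CPM (7.04–41.7), where 4 of the 6 UMIs were in 1 cell, then glia-like cells at 9.05 (7.29–11.1), myeloid-like at 6.74 (0.816–24.3), progenitor-like at 1.53 (0.614–3.15) and neuron-like at 0.396 (0.0480–1.43). Mesenchymal-like cells exceeded glia-like cells 55.4-fold (44.2–70.0) and neuron-like cells, which had 2 UMIs, 1265-fold (348–10475), where 22.1% of 11712 genes were past 2-fold higher. The same 182 cells held the fibroblast genes *Lum* and *Col1a1* at 1436 and 949 CPM.

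At E11.5, where no mesenchymal-like cluster was found, glia-like cells held *Aldh1a2* at 31.4 CPM (27.0–36.4), with a UMI in 3.93% of thinned cells (20% unthinned), and the unnamed *Plcb1*-led cluster held 45.8 (30.2–66.7). Pericyte-like cells stood at 7.91 CPM (2.15–20.2) and progenitor-like cells at 3.89 (1.68–7.66), and the neuron-like cells had no UMI, which allows up to 4.51 CPM at 3 counts. Glia-like and unnamed cells overlapped each other in their intervals and lay above the rest. The 6 glia-like clusters ranged from 16.9 CPM (11.4–24.1) in the *Egfl8*-led cluster to 52.3 (38.8–68.9) in the *Arhgap40*-led cluster. At E12.5 5 of the 6 glia-like clusters lay between 2.21 and 12.9 CPM. The sixth, led by *Dcc* and *Npy*, stood at 32.4 (22.3–45.6).

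RNA from broken cells enters droplets, so levels in myeloid-like and neuron-like cells and in barcodes under the UMI minimum are given beside these. Myeloid-like cells, with a median of 8759 UMIs against 5879 in glia-like cells, held 6.74 CPM of *Aldh1a2*, an interval that takes in the glia-like value at E12.5, while the neuron-like value lay below the glia-like value beyond counting error. Barcodes under the UMI minimum held 27.4 CPM (15.7–44.5) at E11.5 and 7.37 (0.187–41.1) at E12.5, intervals that hold the glia-like value of their stage. These barcodes were among the deposited ones, with or without passing the mitochondrial filter. They can be shallow or damaged cells of the same tissue, so their level is not a measure of background. The 13 genes of the mesenchymal list summed to 6701 CPM in mesenchymal-like cells, and to 522 (E11.5) and 769 (E12.5) in glia-like cells. For every 100 UMIs of that list there were 7.48 of *Aldh1a2* in the mesenchymal-like cells, 2.01 to 20.7 in the glia-like clusters at E11.5, 69.2 in the *Plcb1*-led cluster and 0.237 to 4.94 in the glia-like clusters at E12.5. The list genes were uneven in glia-like clusters, so this ratio does not measure stray mesenchymal RNA. At E12.5 the *Slc36a2*-led cluster held *Col1a2* at 482 CPM and *Lum* at 0.507, against 1106 and 1436 in mesenchymal-like cells. The *Dcc*-led cluster held *Lum* at 9.83 CPM. The part of other cells' RNA in the glia-like values was not tested.

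*Aldh1a1* (chr19:20469539-20622825, plus strand), a second enzyme of the same step, had no UMI in kept cells at E11.5. Of its 5 UMIs at E12.5, 3 were in glia-like cells. It was not detectable above 0.314 CPM over all kept cells at E11.5, the level of 3 counts. *Cyp26b1* (chr6:84548396-84570890, minus strand), which breaks retinoic acid down, had 2 UMIs in 1 pericyte-like cell at E11.5 and 11 UMIs in 11 cells at E12.5, 5 of them glia-like. Its highest class value at E12.5 was 3.20 CPM (0.0809–17.8), 1 UMI in pericyte-like cells.

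*Crabp2* (chr3:87855973-87860683, plus strand) encodes a binding protein that carries retinoic acid to its receptors, and was the member with the most UMIs. In glia-like cells it stood at 197 CPM (186–209) at E11.5 and 265 (255–276) at E12.5, with a UMI in 29.9% and 31.8% of thinned cells (62.7% and 52.9% unthinned). The unnamed clusters, which had markers of both glia-like and progenitor-like cells, held it at 231 (194–273) and 319 (286–353). Progenitor-like cells stood at 61.7 CPM (51.4–73.4) and 56.5 (49.8–63.8), and neuron-like cells at 19.6 (10.4–33.4) and 31.9 (27.2–37.2). At E11.5 the neuron-like and pericyte-like values did not differ beyond their intervals, the latter being 15.8 (6.83–31.2). At E12.5 mesenchymal-like cells held 19.2 CPM (11.7–29.7), 7 of 20 UMIs in 1 cell, and myeloid-like cells 6.74 (0.816–24.3), an interval that overlaps it. Barcodes under the UMI minimum held 152 and 140 CPM at the 2 stages, against 148 and 154 over all kept cells. The 14 genes of the glia-like list summed to 7831 CPM in glia-like and 167 CPM in neuron-like cells at E12.5.

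Glia-like clusters differed widely in *Crabp2*. At E11.5 the *Rgcc*-led cluster stood at 396 CPM (365–430) and the shallow *Hnrnpa0*-led cluster at 252 (198–315), while the other 4 held 111 to 153, the highest of which, the *Rpgrip1*-led one at 153 (114–202), overlapped the latter. At E12.5 the *Ctnnd2*-led cluster held 462 (433–492), the *Ube2c*-led cluster 430 and the *Gm29865*-led cluster 305. The *Slc36a2*-, *Dcc*- and *Zpld1*-led clusters held 93.7, 73.7 and 51.6 CPM, and it was these 3 that had *Prss56* at 311 to 402 CPM, against 14 to 117 in the other 3. *Crabp2* itself was among the leading genes of the *Rgcc*-led and *Ctnnd2*-led clusters, although it was kept out of the clustering. Cycling progenitor-like cells held more *Crabp2* than the other progenitor-like cells, with ratios of 1.64 (1.14–2.37) at E11.5 and 1.99 (1.54–2.56) at E12.5. Among glia-like cells the cycling ones held less *Crabp2* than the others at the earlier stage, with a ratio of 0.787 (0.661–0.942). Cycling glia-like cells held more at the later stage, with a ratio of 1.17 (1.08–1.27).

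**Figure D2:**
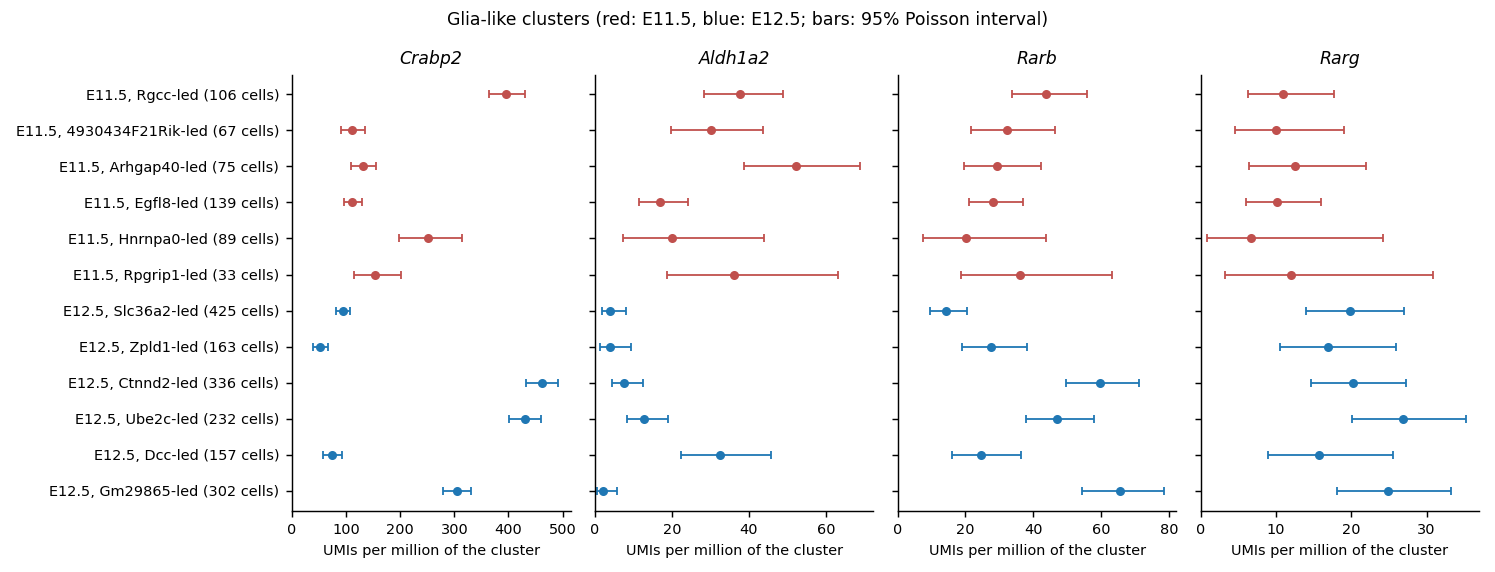
Level of *Crabp2*, *Aldh1a2*, *Rarb* and *Rarg* (x axis, CPM of the cluster) in each glia-like cluster (y axis, named by stage, leading gene and number of cells), as points with 95% Poisson intervals (red E11.5, blue E12.5). At E12.5 *Crabp2* ran from 51.6 to 462 CPM between clusters, *Aldh1a2* reached 32.4 in the *Dcc*-led cluster, and *Rarg* stayed between 15.7 and 26.9.

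*Crabp1* (chr9:54671171-54680403, plus strand), the other cytoplasmic binding protein, was a gene of few cells. At E12.5 it stood at 34.6 CPM (24.2–47.9) in mesenchymal-like cells, 20.6 (16.8–25) in neuron-like, 8.16 (6.49–10.1) in glia-like, 3.20 (0.0809–17.8) in pericyte-like and 1.31 (0.481–2.85) in progenitor-like cells. Myeloid-like cells had no UMI. Its UMIs in neuron-like cells came from 68 of 657 cells, with at most 5 in a cell, and nearly all lay in 1 of the 2 clusters. The cluster led by *Sncg* and *Nefl*, the latter a neurofilament gene, held 42.9 CPM (34.8–52.2), and the *Ccer2*-led cluster 1.83 (0.593–4.26). At E11.5 the *Stmn2*- and *Nefl*-led neuron-like cluster held 63.2 CPM (45.5–85.4), but 28 of its 42 UMIs were in 1 cell, and without that cell the value was 21.3 (11.6–35.7). Glia-like cells then stood at 6.64 (4.70–9.11) and progenitor-like cells at 3.40 (1.37–7.01), which overlap.

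The 3 receptors had different class patterns. *Rara* (chr11:98818612-98865768, plus strand) was the most even. It stood at 42.6 CPM (37.4–48.3) in glia-like, 22.8 (16.8–30.4) in progenitor-like, 19.6 (10.4–33.4) in neuron-like and 17.8 (8.14–33.8) in pericyte-like cells at E11.5, where all but the glia-like value overlapped. At E12.5 mesenchymal-like cells held 49.9 CPM (37.3–65.5), pericyte-like 41.5 (22.1–71.0), glia-like 38.1 (34.4–42.1), progenitor-like 26.4 (21.9–31.6) and neuron-like 25.4 (21.2–30.2). Among these 5 the upper 3 overlapped, and so did the last 2, while the wide pericyte-like interval overlapped every other one. Myeloid-like cells held 1 UMI, 3.37 CPM (0.0853–18.8). In shares, *Rara* was in 5.50% and 6.91% of thinned glia-like cells (34.2% and 20.4% unthinned) and in 7.02% of thinned mesenchymal-like cells (25.8%), against 2.78% of unthinned myeloid-like cells.

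*Rarb* (chr14:5650540-6041094, plus strand) is itself a classic target of retinoic acid, through a pair of receptor half-sites close to a start of transcription. In RefSeq promoters of GRCm38.p6, a direct repeat of 2 half-sites with 5 bases between them (DR5), on either strand, was found in 32 of 32851 windows (0.0974%) of 250 bases before to 50 after a start. Counted as a half-site were AGGTCA as well as AGTTCA, and likewise GGGTCA as well as GGTTCA. Of the 9 members 8 had such a window, and *Rarb* alone held this motif. It is shown with the start of *Cyp26a1*, the retinoic acid-breaking enzyme of the wider list and the other gene of the lists with a DR5, half-sites in capitals, 120 bases up to the base before the start. The *Rarb* stretch is chr14:16575477-16575596 on the minus strand and the *Cyp26a1* stretch chr19:37697688-37697807 on the plus strand.
Rarb: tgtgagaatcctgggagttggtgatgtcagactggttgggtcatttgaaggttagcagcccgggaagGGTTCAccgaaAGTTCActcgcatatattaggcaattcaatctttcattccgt
Cyp26a1: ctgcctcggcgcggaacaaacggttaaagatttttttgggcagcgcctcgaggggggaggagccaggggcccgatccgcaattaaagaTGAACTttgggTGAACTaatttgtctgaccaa

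The repeat lies 37 to 53 bases before the start of *Rarb* and, on the opposite strand, 16 to 32 bases before that of *Cyp26a1*. Repeats with 1 or 2 bases between the half-sites were in 0.222% and 0.268% of windows and in none of the members. A match is a description of the letters and not a measured site.

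At E12.5 *Rarb* was highest in mesenchymal-like cells, at 106 CPM (86.8–127) and in 17.5% of thinned cells (40.7% unthinned). The order below was progenitor-like at 47.6 (41.5–54.3), glia-like at 41.9 (38.0–46.1), neuron-like at 27.1 (22.8–32.1) and pericyte-like at 25.6 (11–50.4). Here the progenitor-like and glia-like intervals overlapped, and the wide pericyte-like interval overlapped the progenitor-like, glia-like and neuron-like ones. Myeloid-like cells held 6.74 CPM (0.816–24.3). At E11.5 neuron-like cells stood at 33.1 (20.7–50.1), glia-like at 33.0 (28.5–38.1), progenitor-like at 19.9 (14.3–27.0) and pericyte-like at 13.8 (5.56–28.5). Among glia-like clusters at E12.5 *Rarb* ran from 14.2 CPM (9.43–20.5) in the *Slc36a2*-led cluster to 65.7 (54.5–78.7) in the *Gm29865*-led cluster. Among progenitor-like clusters the *Igfbpl1*-led one stood at 73.7 (60.0–89.6), above the *St18*-led one at 29.0 (22.0–37.6). The 3′-most 6794 bases of the gene, chr14:6034301-6041094, overlap *Top2b* on the other strand. At E12.5 *Top2b* stood at 114 CPM in neuron-like, 104 in progenitor-like, 73.9 in glia-like, 54.3 in pericyte-like, 47.1 in mesenchymal-like and 33.7 in myeloid-like cells. At that stage the mesenchymal-like cells were highest for *Rarb* and among the lowest for *Top2b*. Progenitor-like cells held more *Top2b* than glia-like cells, and their *Rarb* intervals overlapped. At E11.5 progenitor-like and glia-like cells held *Top2b* at 80.6 and 76.5 CPM and *Rarb* at 19.9 and 33.0. Whether RNA of *Top2b* was counted as *Rarb* was not tested.

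*Rarg* (chr15:102143373-102165952, minus strand) separated glia from the neurogenic classes. At E11.5 it stood at 13.8 CPM (5.56–28.5) in pericyte-like and 10.7 (8.15–13.7) in glia-like cells, against 1.94 (0.529–4.98) in progenitor-like and 1.5 (0.0381–8.38), 1 UMI, in neuron-like cells. At E12.5 pericyte-like, mesenchymal-like and glia-like cells held 32.0 (15.3–58.8), 23.0 (14.8–34.3) and 21.4 (18.6–24.4), which overlap, and neuron-like and progenitor-like cells held 3.17 (1.81–5.15) and 1.31 (0.481–2.85). The last 2 lay under the 10.1 CPM that 0 UMIs in the myeloid-like cells allow. Between the glia-like clusters *Rarg* differed little, with 6.71 to 12.5 CPM at E11.5 and 15.7 to 26.9 at E12.5.

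**Figure D3:**
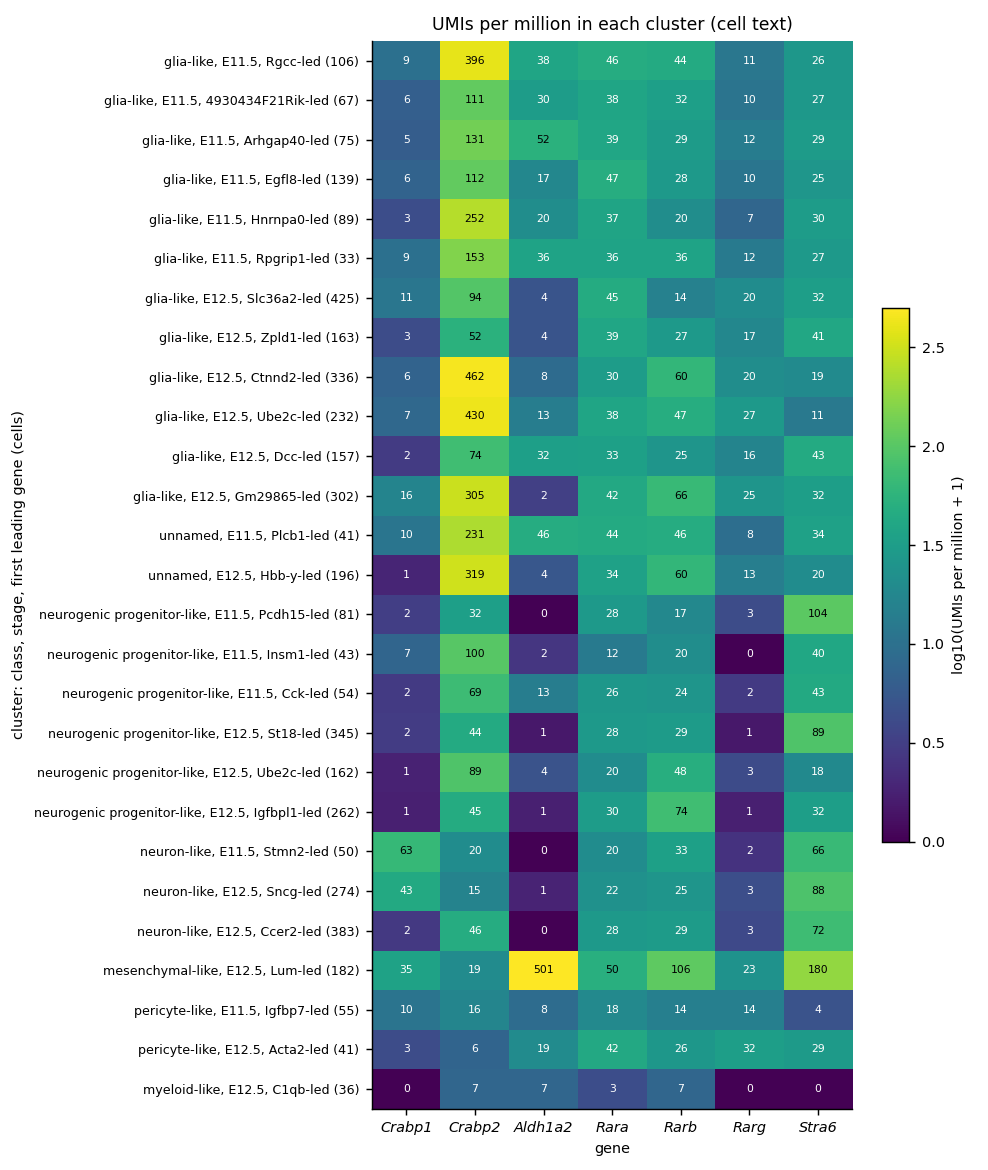
CPM of the 7 members with 100 or more UMIs (x axis) in each of the 27 clusters (y axis: class, stage, leading gene and number of cells), printed in the cells and coloured on a log10 scale of the value plus 1. The *Lum*-led mesenchymal-like row stands out for *Aldh1a2* at 501 and *Stra6* at 180, and *Crabp1* is bright in the *Stmn2*-led, *Sncg*-led and *Lum*-led rows.

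Neuron-like and glia-like cells were compared within each library by the ratio of their CPM, among genes with at least 20 UMIs over both classes, and a ratio past 2-fold was counted. Of the 9 members 7 had enough UMIs. At E11.5 *Crabp1* was 9.52-fold (5.99–15.2) and *Stra6* 2.48-fold (1.73–3.48) higher in neuron-like cells, where 13.7% of 11393 genes were past 2-fold in that direction. Without the cell with most UMIs in each class *Crabp1* was 3.47-fold higher (1.72–6.61). *Crabp2* was 10.1-fold lower (5.88–19.0), *Aldh1a2* at least 6.97-fold lower, taking its 0 UMIs as 3, *Rara* 2.18-fold lower (1.25–4.15) and *Rarg* 7.08-fold lower (1.22–284) on 1 UMI, beside 25.7% of all genes. The ratio of *Rarb* was 1.00 (0.613–1.56). The median ratio of the 7 members was 0.459, and that of all genes 0.883.

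At E12.5 the same 2 members were higher, *Stra6* 2.88-fold (2.46–3.36) and *Crabp1* 2.53-fold (1.87–3.42), beside 14.2% of 13836 genes. *Crabp2* was 8.32-fold lower (7.09–9.81), *Aldh1a2* 22.8-fold lower (6.15–192) on 2 UMIs and *Rarg* 6.75-fold lower (4.06–12), beside 25.4% of genes. *Rara* and *Rarb* stood at ratios of 0.666 (0.541–0.815) and 0.648 (0.530–0.788), within 2-fold. The medians were 0.648 over members and 0.885 over all genes. The 2 stages differ in what was called neuron-like, since the *Pcdh15*- and *Kcnmb2*-led cluster was progenitor-like at E11.5 and the *Ccer2*-led cluster that holds the same genes was neuron-like at E12.5. With progenitor-like cells pooled into the neuron-like class, 1 member in place of 2 was past 2-fold higher at E12.5.

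**Figure D4:**
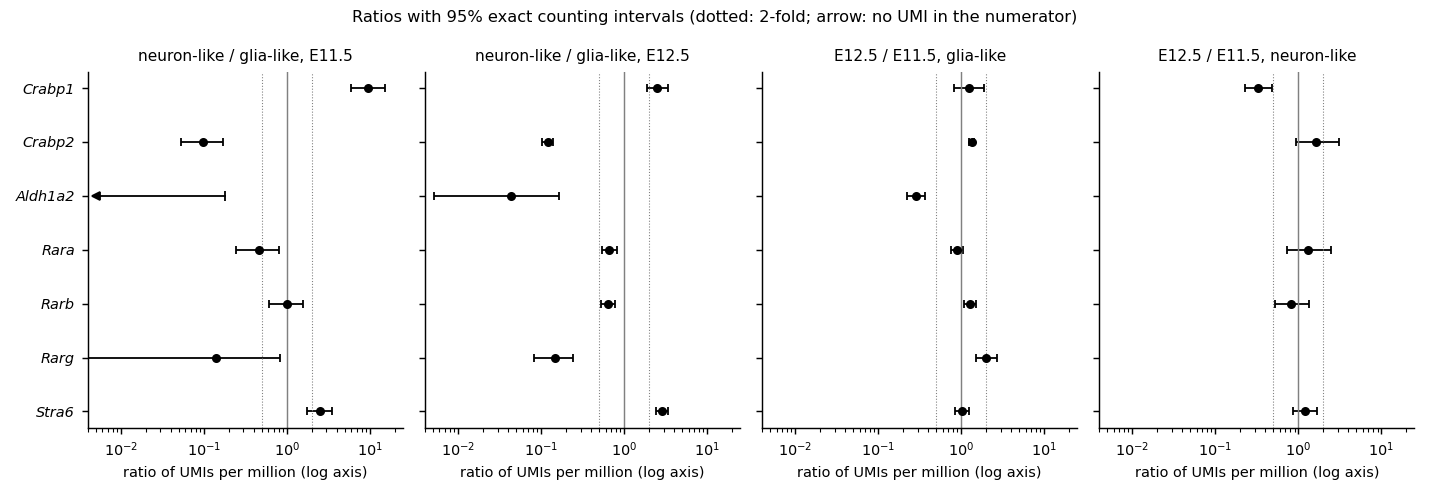
Ratios of CPM (x axis, log scale, with dotted lines at 2-fold) of 7 members (y axis) for neuron-like over glia-like cells at each stage and for E12.5 over E11.5 in each class, with 95% exact intervals for 2 counts. The panel of E12.5 over E11.5 in neuron-like cells shows only the 5 members with enough UMIs there. The arrow marks *Aldh1a2* with no UMI in the E11.5 neuron-like cells, the lower end of the *Rarg* interval there lies beyond the axis, and *Crabp2* lies below and *Stra6* above 2-fold in both left panels.

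Progenitor-like cells were compared with glia-like cells in the same way. *Stra6* was 2.60-fold higher (2.05–3.29) at E11.5, beside 8.93% of all genes, and stood at a ratio of 1.90 (1.59–2.27) at E12.5, where no member and 9.49% of genes were past 2-fold higher. *Crabp2* was 3.20-fold (2.66–3.88) and 4.69-fold (4.13–5.35) lower, *Rarg* 5.48-fold (2.04–20.8) and 16.3-fold (7.38–45.0) lower and *Aldh1a2* 8.09-fold (4.02–19.0) and 5.93-fold (2.76–15.2) lower at E11.5 and E12.5, beside 20.2% and 24.1% of genes. *Crabp1* was also lower at E12.5, 6.23-fold (2.74–17.5). The medians were 0.512 and 0.213 over members.

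In mesenchymal-like cells at E12.5 4 of the 7 members were past 2-fold above glia-like cells, namely *Aldh1a2*, *Stra6* at 6.52-fold (5.38–7.87), *Crabp1* at 4.24-fold (2.78–6.34) and *Rarb* at 2.52-fold (2.03–3.12), beside 14.2% of 13224 genes. *Crabp2* was 13.8-fold lower (8.93–22.7), beside 14.4%, and *Rara* and *Rarg* stood at 1.31 (0.961–1.75) and 1.08 (0.676–1.65). The members' median ratio was 2.52 against 1.00 for all genes. In pericyte-like cells 5 of 7 members were past 2-fold lower than in mesenchymal-like cells, beside 16.0% of 8033 genes. *Aldh1a2* was 26.1-fold (11.9–71.6), *Stra6* 6.24-fold (3.22–13.9) and *Rarb* 4.13-fold (2.03–9.81) lower. The others were *Crabp1*, at 3.20 against 34.6 CPM on 1 UMI, and *Crabp2*, at 6.39 against 19.2 on 2 UMIs. *Rara* and *Rarg* were within 2-fold, at 41.5 against 49.9 and 32.0 against 23.0 CPM.

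Between the stages, glia-like cells held 2.01-fold more *Rarg* (1.5–2.71) and 3.47-fold less *Aldh1a2* (2.68–4.52) at E12.5, where 10.0% of 13540 genes were past 2-fold higher and 2.11% lower. The *Rarg* ratio sat on the threshold and ran from 1.84 to 2.21 over 19 other settings. With clusters named by markers 2-fold above other cells, the *Aldh1a2* ratio was 0.536 in place of 0.288, within 2-fold. That naming left 139 glia-like cells in place of 509 at E11.5, and all 1615 at E12.5. The other 5 members lay within 2-fold, from *Rara* at 0.894 (0.759–1.05) to *Crabp2* at 1.34 (1.25–1.44), and the median ratio was 1.23 over members and 1.09 over all genes. Some glia-like clusters of the 2 stages shared leading genes. The *Rgcc*-led cluster of E11.5 and the *Ctnnd2*-led cluster of E12.5, which both had *Rgcc*, *Ctnnd2*, *Fabp7* and *Ptn* among these, held *Aldh1a2* at 37.6 CPM (28.3–48.9) and 7.70 (4.4–12.5), and the *Egfl8*-led and *Slc36a2*-led clusters, which shared *Egfl8*, *Sorcs1* and *Pls3*, at 16.9 (11.4–24.1) and 4.05 (1.75–7.99). The *4930434F21Rik*-led cluster of E11.5 and the *Dcc*-led cluster of E12.5 shared *Kcnip4*, *Npy* and *Dcc*. They held *Aldh1a2* at 30.1 CPM (19.8–43.7) and 32.4 (22.3–45.6), so that the lower level at E12.5 was not seen in every such pair.

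In neuron-like cells 5 members had enough UMIs, none was past 2-fold higher at E12.5, beside 9.88% of 10794 genes, and 1 was lower, beside 3.38%. This was *Crabp1*, 3.07-fold lower (2.09–4.43). Its value rested on the cell with 28 UMIs at E11.5, since without the cell with most UMIs in each class the ratio was 0.922 (0.524–1.75). Both ratios take in the *Ccer2*-led cluster at E12.5, with *Crabp1* at 1.83 CPM, while the *Pcdh15*-led cluster of E11.5 was called progenitor-like. The *Sncg*-led cluster of E12.5 held 42.9 CPM (34.8–52.2). The *Stmn2*-led cluster of E11.5 held 63.2 (45.5–85.4), or 21.3 (11.6–35.7) without its top cell. *Stra6*, *Crabp2*, *Rara* and *Rarb* stood at 1.20 (0.875–1.67), 1.63 (0.927–3.13), 1.30 (0.732–2.50) and 0.820 (0.520–1.35). For *Crabp2* the *Stmn2*-led cluster held 19.6 CPM at E11.5, and the *Sncg*-led and *Ccer2*-led clusters 15.2 and 46.0 at E12.5. In progenitor-like cells *Rarb* was 2.39-fold higher (1.7–3.42) at E12.5, 47.6 against 19.9 CPM, where 6.24% of 10983 genes were higher. The progenitor-like clusters held *Rarb* at 17.3 to 24.3 CPM at E11.5 and 29.0 to 73.7 at E12.5. With neuron-like cells pooled in, the ratio was 1.59 (1.22–2.12), within 2-fold. Pooling removes the difference in naming of the *Pcdh15*-led and *Ccer2*-led clusters. It also adds neuron-like cells, with *Rarb* at 33.1 CPM at E11.5 and 27.1 at E12.5. These were 50 beside 178 progenitor-like cells at E11.5 and 657 beside 769 at E12.5, so the 1.59 does not describe progenitor-like cells alone. None of the 4 members with enough UMIs was past 2-fold lower, beside 2.42% of genes. *Stra6*, *Crabp2* and *Rara* lay within 2-fold there, at 0.754 (0.610–0.934), 0.916 (0.738–1.14) and 1.16 (0.819–1.66).

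Other genes of the pathway were taken from 4 wider lists. Of the 14 genes of retinol supply and synthesis, 5 had enough UMIs at E11.5, and 4 of these were past 2-fold lower in neuron-like than in glia-like cells, with a median ratio of 0.308. Of the 6 at E12.5, 5 were lower, with a median of 0.256, and none was higher at either stage. Over all genes 25.7% and 25.4% were lower, and the medians were 0.883 and 0.885. *Dhrs3*, which turns retinal back to retinol, was at least 9.29-fold lower on 0 UMIs and 35.7-fold lower. *Rdh10*, which makes retinal, was 4.99-fold lower at E12.5, 3.37 against 16.8 CPM. In mesenchymal-like cells 3 of 7 were higher than in glia-like cells and none lower, with a median of 1.91, beside 14.2% higher, 14.4% lower and a median of 1.00 over all genes. *Rdh10* stood at 162 CPM (139–189) there, 9.65-fold higher (7.75–12), and *Cyp1b1*, a cytochrome that can oxidise retinol, at 51.9 against 0.0995 on 1 UMI, a ratio of 521 (89.7–20966). *Aldh1a3*, another enzyme of the *Aldh1a* group, was the other of the 3, at 6.72 CPM (2.70–13.9) against 3.18 (2.18–4.49), a ratio of 2.11 (0.787–4.87) whose interval holds 1.

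Of the 3 genes of the binding and breakdown list only *Fabp5*, a fatty acid binding protein that also carries retinoic acid, had enough UMIs. It was 3.88-fold higher (3.73–4.04) in neuron-like than in glia-like cells at E12.5, 1445 against 372 CPM, and stood at a ratio of 1.96 at E11.5, so that it and *Crabp2* lay on opposite sides. *Cyp26a1* had 1 UMI in glia-like cells at E12.5 and 2 in pericyte-like cells at E11.5, and *Cyp26c1* had none in any named class.

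All 11 partner receptors and cofactors had enough UMIs. At E11.5 none was higher and 3 were lower in neuron-like cells, and at E12.5 1 was higher and 3 lower, with medians of 0.964 and 0.807. With 25.7% and 25.4% of all genes lower and 13.7% and 14.2% higher, these counts were near the background. *Rxrg*, a partner of the retinoic acid receptors, stood in glia-like cells at 107 CPM at E12.5, 2.15-fold above (1.88–2.46) its 49.8 CPM at E11.5, and was 33.1-fold lower in neuron-like cells at E11.5 on 1 UMI and 54.0-fold lower at E12.5. *Rxra* had 0 UMIs in neuron-like cells at E11.5, at least 2.21-fold lower. At E12.5 *Rxrg* was 15.9-fold and the corepressor *Nrip1* 3.25-fold lower in mesenchymal-like than in glia-like cells.

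Among 13 genes known as targets, 11 had enough UMIs, and 4 were higher and 2 lower in neuron-like cells at E11.5 and 3 higher and 2 lower at E12.5, with medians of 1.16 and 0.869, beside 13.7% and 14.2% of all genes higher, 25.7% and 25.4% lower and medians of 0.883 and 0.885. The homeobox gene *Meis2* was 10.9-fold (8.43–14.2) and 4.38-fold (3.21–6.05) higher, and *Hoxb5* 4.28-fold (3.29–5.54) and 2.75-fold (2.33–3.27) higher. *Hoxb4* was 3.68-fold higher (2.95–4.56) at E11.5 and 2.72-fold (2.44–3.02) at E12.5. Between the stages *Meis2* was lower at E12.5, 7.88-fold in neuron-like cells, 206 against 26.2 CPM, and 3.16-fold in glia-like cells. *Hoxb5* was 2.06-fold lower in neuron-like cells. In mesenchymal-like cells 3 targets were higher and 4 lower than in glia-like cells, beside 14.2% and 14.4% of all genes, *Meis2* being 10.1-fold higher (7–14.7) and *Tgm2*, a transglutaminase, 8.5-fold higher (6.14–11.8), while *Hoxa4* was 3.42-fold lower (0.910–28.8) on 2 UMIs.

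Progenitor-like cells were set against glia-like cells for the same lists. *Rxrg* was 17.1-fold lower (7.75–46.9) at E11.5, and at E12.5 54.5-fold lower (28.6–119). *Dhrs3* was 7.19-fold and 9.44-fold lower at the earlier and later stage. *Hoxb4* was 3.22-fold and 2.93-fold higher and *Hoxb5* 2.57-fold and 3.04-fold higher. *Fabp5* was 2.83-fold higher (2.71–2.95) at E12.5. Between the stages, progenitor-like cells held 3.78-fold less *Meis2* (2.12–6.94) at E12.5.

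Counted per cell, a UMI of any of the 9 members was found in 70.2% (62.7–76.9) of thinned mesenchymal-like cells, 49.4% (46.9–51.9) of glia-like, 30.1% of progenitor-like, 29.4% of neuron-like and 5.88% (0.720–19.7) of myeloid-like cells at E12.5. The unthinned shares were 94.5%, 75.7%, 60.3%, 72.3% and 13.9%. At E11.5 the thinned shares were 43.4%, 32.0% and 20% in glia-like, progenitor-like and neuron-like cells, and 84.9%, 80.9% and 80.0% unthinned. A UMI of any of the 3 receptors was in 26.9% of thinned mesenchymal-like and 18.2% of glia-like cells at E12.5, and 2 or more receptors in 1.75% and 0.847%.

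Members found in the same cell were compared with the product of their separate shares, in 61 combinations of a pair and a glia-like, progenitor-like, neuron-like or mesenchymal-like class in which the product gives at least 1 thinned cell. In 1 of the 61 the product lay outside the interval. *Crabp2* and *Aldh1a2* were together in 2 of 1535 thinned glia-like cells at E12.5, 0.130% (0.0158–0.470), where the product gives 8.58 cells or 0.559%. In unthinned cells this pair was together in 41 of 1615, 2.54% (1.83–3.43). The product there gives 35.4 cells or 2.19%, within the interval, so the deficit was seen only after thinning. Thinning was 1 random draw, and counting error alone can put some of the 61 combinations outside their intervals. *Crabp2* and *Rarb* were together in 39 of 1535 thinned glia-like cells at E12.5, where the product gives 41.0, and in 217 of 1615 unthinned cells, 13.4% (11.8–15.2), where it gives 171 cells or 10.6%. The product thus lay below the interval in unthinned cells, which differ in depth, and not after thinning. *Aldh1a2* and *Stra6* were together in 29 of 171 thinned mesenchymal-like cells, 17.0% (11.7–23.4), where the product gives 21.9, and in 69 of 182 unthinned cells, where it gives 66.2. For this pair an excess over the product was not detectable at this depth.

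Likeness of pattern was described by Pearson's r of log2(CPM + 10) over the 27 clusters of both libraries, among 11922 genes with 100 or more UMIs. The clusters share libraries, depth and like cells, so r is a description only. The genes most like *Crabp2* were *Sox2* (0.872), a transcription factor of neural progenitors and glia, *Gpsm2* (0.858) and *Smtnl2* (0.853). Those most like *Aldh1a2* were *Gjb2* (0.866), a connexin of the meninges, *Klf5* (0.819) and *Echdc2* (0.818), and those most like *Crabp1* were *Dok5* (0.891), *Nrg3* (0.836) and *Mblac2* (0.817). For *Stra6* they were *Mcc* (0.830), *Ctnna2* (0.807) and *Fsd1* (0.806). For the receptors they were *Gorasp2* (0.835), *Maged1* (0.824) and *Jam3* (0.818) with *Rara*, *Efnb1* (0.803), *2610037D02Rik* (0.726) and *Lrrn1* (0.718) with *Rarb*, and *Cfap20* (0.931), *Sdc2* (0.907) and *Col4a2* (0.896) with *Rarg*. Between members the highest r was 0.66, for *Rara* and *Rarg*, and *Crabp1* and *Crabp2* stood at -0.16.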

How the data were processed

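The deposited files hold UMI counts, whole numbers for each gene and barcode, that the authors made with Cell Ranger on an mm39 reference. The version is 7.0 in the submitters' processing notes and 7.0.1 in the matrix header, and whether intronic reads were counted is not given in the sources used here. The counts are not normalized, and total 10287595 at E11.5 (1431 barcodes) and 23460243 at E12.5 (3762 barcodes).

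Following the filters of the methods, cells with over 10% mitochondrial UMIs, with under 2000 (E11.5) or 1000 UMIs (E12.5), or with a Scrublet score of 0.2 or more (scanpy 1.11.5) were removed. Each library was clustered alone (counts scaled to 10000 per cell, 3000 variable genes without the 50 genes of the lists, 30 principal components, 15 neighbours, Leiden resolution 1.0). A marker counted for a cluster when detected in at least 20% of its cells at a mean level no lower than 1/3 of the top cluster's. Among classes with 3 or more such markers, the one with the largest share of its list gave the name, and a cluster stayed unnamed where its 10 leading genes held more markers of another class than of that one, or where it was under 1/3 of the library's median depth with none of its markers among them. Thinning was a single random draw, and 165 cells of E12.5 with fewer UMIs than 2000 were left out of thinned shares.

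Intervals are exact (scipy 1.17.1): Poisson for CPM, Clopper-Pearson for shares and conditional on the total for ratios. A count of 0 is set at 3 counts. The calculation of the ratio was checked on simulated data of 33207 genes from the means of the E12.5 library. There 195 of 200 genes changed 4-fold were called in the right direction and 0 in the wrong one. Of 13780 unchanged genes 231 were past 2-fold, and 95.2% of intervals of unchanged genes held 1. The draws were Poisson, as the intervals assume, and left out the clumping of UMIs in single cells and clusters. They check the arithmetic and not the spread in these data. The members and lists were chosen with earlier results of these data known. The genes named are the 9 members, the 3 largest ratios each way past 2-fold from the wider lists in a comparison, the 3 genes most like each member with 100 or more UMIs, and leading genes as labels, and *Rdh10* at E12.5 in neuron-like cells, *Tgm2*, *Hoxb4* at E12.5 in neuron-like cells, *Aldh1a3*, *Cyp26a1*, *Cyp26c1* and the overlapping genes were named after their values were seen. Gene positions are from GENCODE M39 on GRCm39 and promoters from RefSeq on GRCm38.p6. Some genes that this rule names are not reported here. Groups came from the labels, and no test was made.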

Additional observations from a re-analysis of the deposited data

How the results depend on the processing

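No paired analysis was possible because each stage has 1 library and the values come from no test, and for the same reason no replicate could be left out. Under the alternatives that can move a ratio, 371 of 416 member ratios kept within their interval and 45 moved beyond it. Of the ratios past 2-fold in the main setting, 0 crossed to the other side of 1. Ratios within 2-fold were not counted in this way, and some did cross 1. Between the stages in neuron-like cells *Rarb* ran from 0.597 to 1.90 around its 0.820, and *Crabp2* from 0.848 to 1.84 around its 1.63. Of 945 member shares of cells, 167 moved, and of 257 counts, 34 moved by over 1.5 times.

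For glia-like cells between the stages, the count of members higher at E12.5 (1, *Rarg*) was 0 with median-of-ratios size factors, thinned sums, a minimum of 2000 UMIs in both libraries, Leiden resolution 0.5 or 2, 15 principal components, 2000 variable genes, the retinoic acid lists in the clustering or shallow clusters left out, 3 with no minimum beyond 1 UMI, and 2 with clusters named by fold, where the count of lower members (1, *Aldh1a2*) was 0. For neuron-like cells between the stages, the count higher (0) was 4 with no minimum, and 1 with a 1.5-fold threshold or thinned sums. The count lower (1, *Crabp1*) was 0 with 2000 UMIs in both libraries, 2000 variable genes, the lists in the clustering or another clustering seed, and 0 under both alternatives chosen after seeing the data, without the top cell of each class and with progenitor-like cells pooled in. *Crabp1* in this comparison ran from 0.136 to 0.922. Shares over all genes were not taken under the alternative settings, so these counts have no background beside them.

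Of neuron-like over glia-like cells, the count higher at E11.5 (2) was 1 with a minimum of 100 UMIs, thinned sums or 5% mitochondrial UMIs, and at E12.5 (2) was 1 with progenitor-like cells pooled in. The count lower at E12.5 (3) was 5 at 1.5-fold and 2 with a minimum of 100 UMIs, and at E11.5 (4) it was 3 with that minimum, thinned sums, progenitor-like cells pooled in or clusters named by fold. *Crabp1* ran from 2.71 to 18.8 at E11.5 and 1.40 to 4.78 at E12.5, *Stra6* from 1.82 to 2.74 and 2.41 to 3.28, and *Crabp2* from 0.0740 to 0.260 and 0.0678 to 0.164.

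Members with a UMI in 2% or more of thinned cells numbered, at E11.5, 6, 5 and 5 in glia-like, progenitor-like and neuron-like cells. They numbered 5, 4 and 5 in these classes at E12.5, and 7 in mesenchymal-like cells. Asking for 2 UMIs, they numbered 1, 0 and 1, then 1, 0 and 0, and 3. With no doublet filter the neuron-like cells at E11.5 had 3. The cause of these moves was not tested. Among the 50 neuron-like cells at E11.5, 2% was 1 cell, on which *Rara* counted, so these counts do not compare classes. The share over all genes was not taken at this cut. A single UMI per cell carries most shares, so depth limits them more than the summed levels. Cells of 1 litter share their source, and no value of the spread between litters could be had.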
